A study of Mus musculus with 4 samples.

Results

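The Fc receptor genes described here are Fcgr1, Fcgr2b, Fcgr3, Fcgr4, Fcer1g and Fcgrt. They were chosen by name as the mouse receptors for the constant (Fc) part of IgG and the signalling chain that some of them share. These are 6 of the 48526 gene identifiers in the deposited expression table, and all 6 were among the 13528 genes tested. RNA came from lamina propria mononuclear cells (LPMCs), the cells isolated from the connective tissue layer of the gut mucosa, after transfer of CD4 T cells into mice. One group of 2 samples had received wild-type (wt) CD4 cells and showed pronounced colitis. The other group of 2 samples had received CD4 cells that lacked both Hobit and Blimp (DKO, double knockout), both of which repress transcription in lymphocytes that stay in tissues, and showed mild colitis. The knockout was carried by the transferred cells, while Fc receptors are carried mainly by other cells of the preparation. The labels do not state the strain, age or remaining lymphocytes of the recipients, nor how each allele was deleted. Both groups share the tissue and the RNA protocol, and the replicates are described as biological.

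Fc gamma receptors bind IgG that has coated a microbe or an antigen and so link antibody to phagocytes. Fcgr1, Fcgr3 and Fcgr4 are activating: their ligand-binding chains need the gamma chain, encoded by Fcer1g, whose cytoplasmic tail carries an immunoreceptor tyrosine-based activation motif (ITAM) that recruits the kinase Syk. Fcgr2b is the inhibitory member. It carries an inhibitory motif (ITIM) in its own tail, recruits the lipid phosphatase encoded by Inpp5d and sets the threshold for the activating receptors. Fcgrt encodes the heavy chain of the neonatal Fc receptor, which pairs with beta-2 microglobulin, binds IgG in acidic endosomes and returns it, with albumin, to the circulation or across epithelium. In the gut, macrophages, monocytes and neutrophils carry the activating receptors, and mast cells carry Fcgr3.

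Values are rlog, a regularized log2 expression that pulls each gene towards its mean, so that differences are understated, most in genes with few reads. Sequencing depth is unknown from this table. Sample medians of rlog ran from 8.33 to 8.35. The preparations held T cells (9 of 9 T cell markers tested, 0 of them past the test, although 5 fell without DKO replicate 2) and macrophages (14 of 15 markers tested), and also connective tissue and epithelium (12 of 12 and 8 of 8 markers tested). Of 9 B cell markers 2 were listed at 0 in all 4 samples, Pax5 among them, and 6 were under the minimum for testing, a mean rlog of 4, with Ms4a1 between -1.04 and -1.02. Cd79b was tested, at 5.73 and 5.71 in wild type and 5.77 and 5.76 in DKO. Other genes that B cells express were higher, such as Cd72 (8.34 to 8.59) and Ighm (8.50 to 8.92).

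The 5 genes of the Fc gamma receptor system fell in DKO and the neonatal receptor rose. Fcgr4 fell most (-0.71 on the log2 scale), followed by Fcer1g (-0.64), Fcgr3 (-0.60), Fcgr2b (-0.58) and Fcgr1 (-0.48). These are decreases of 1.39- to 1.64-fold. Fcgrt was higher by 0.35, a fold of 1.27. In limma with Benjamini-Hochberg adjustment over all tested genes, 5 of the 6 members fell, against 4.85% of all tested genes, and 1 rose, against 9.92% (14.8% in either direction). The samples of the groups did not overlap for any of the 6, which also held for 55.3% of all tested genes, 30.3% with DKO lower and 25.0% with DKO higher. In RNA from mixed cells, fewer cells of a type and less RNA per cell cannot be told apart.

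**Figure D1:**
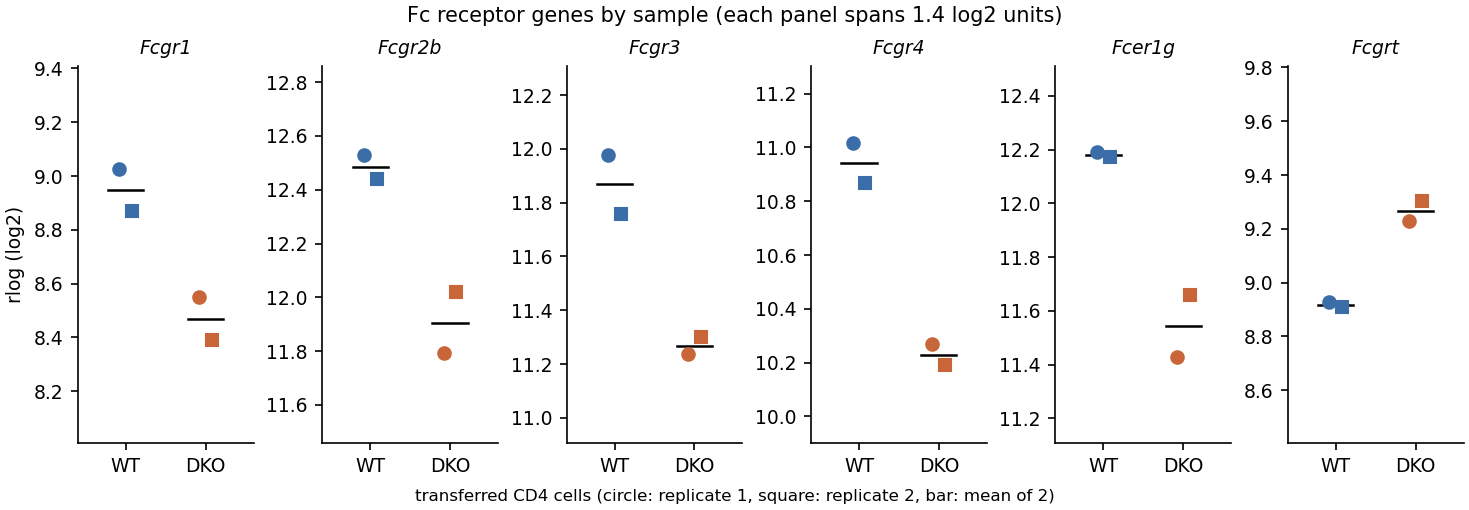
Rlog (log2) of the 6 Fc receptor genes in each sample, with wild-type transfer (WT) in blue and DKO transfer in orange. Points are samples, bars are means of 2, and each panel spans the same 1.4 log2 units around its own middle. For Fcgr1, Fcgr2b, Fcgr3, Fcgr4 and Fcer1g both DKO samples lie below both wild-type samples, and for Fcgrt both lie above.

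Among the activating receptors, Fcgr4, a receptor for IgG2 subclasses on monocytes, macrophages and neutrophils (ENSMUSG00000059089, GRCm38 chromosome 1, 171018920 to 171029761), stood at 11.01 and 10.87 in wild type and at 10.27 and 10.19 in DKO. The gap between the nearest samples of the groups was 0.60, several times the spread within each group (means 10.94 ± 0.103 and 10.23 ± 0.0556, SD, n = 2). Its difference was -0.71 (SE 0.0836, 95% interval -0.90 to -0.53, adjusted p = 0.000182 in limma), and 0.651% of the tested genes had a lower value.

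Fcgr3, the low-affinity activating receptor that mast cells and natural killer cells also carry (ENSMUSG00000059498, chromosome 1, 171051174 to 171064935), was at 11.98 and 11.76 in wild type and 11.24 and 11.30 in DKO. The wild-type samples were the more spread pair, and both were above both DKO samples. The difference was -0.60 (SE 0.0917, 95% interval -0.80 to -0.40, adjusted p = 0.00101).

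Fcgr1, the high-affinity receptor that is often used to mark macrophages (ENSMUSG00000015947, chromosome 3, 96282909 to 96293969), was at 9.03 and 8.87 in wild type and 8.55 and 8.39 in DKO. Its groups were 0.32 apart, against SDs of 0.110 and 0.112 within them (n = 2). The difference of -0.48 (SE 0.098, 95% interval -0.69 to -0.26, adjusted p = 0.00637) was the smallest fall of the 5. It missed the threshold when wild-type replicate 1 was left out (-0.40, adjusted p = 0.0616).

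Fcer1g, the gamma chain (ENSMUSG00000058715, chromosome 1, 171229572 to 171234365), was at 12.19 and 12.17 in wild type and at 11.43 and 11.66 in DKO. The wild-type samples were nearly equal, and DKO replicate 1 was the lowest of the 4. It fell by 0.64 (SE 0.0936, 95% interval of the difference -0.84 to -0.43, adjusted p = 0.000787).

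Fcgr2b, the inhibitory receptor (ENSMUSG00000026656, chromosome 1, 170958617 to 170976547), was at 12.53 and 12.44 in wild type and at 11.79 and 12.02 in DKO. As for Fcer1g, DKO replicate 1 was the lowest sample. The difference was -0.58 (SE 0.0969, 95% interval -0.79 to -0.36, adjusted p = 0.00184). Besides myeloid cells, B cells and endothelium of liver sinusoids are known to carry Fcgr2b. The summed level of the B cell markers was 6.48 and 6.37 in wild type and 6.41 and 6.37 in DKO. That of the endothelial markers, a list not limited to liver sinusoids, was higher in DKO (values given with the marker lists). The part of these cells in the level of Fcgr2b was not tested.

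Fcgrt, the neonatal receptor (ENSMUSG00000003420, chromosome 7, 45092990 to 45103851), was at 8.93 and 8.91 in wild type and at 9.23 and 9.30 in DKO, where both samples were higher. The difference was 0.35 (SE 0.0836, 95% interval 0.16 to 0.53, adjusted p = 0.016). It missed the threshold when either wild-type replicate was left out (adjusted p = 0.0743 for the first and 0.109 for the second), with differences of 0.36 and 0.34. Its partner B2m was at 15.80, 15.97, 15.73 and 15.80 in the same order of samples (-0.12, SE 0.151, adjusted p = 0.688), with groups that overlapped. With no minimum on the mean rlog, none of the 6 members passed (adjusted p from 0.0564 for Fcgr4 to 0.115 for Fcgr1), with the differences unchanged.

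The balance of activating to inhibitory receptors was read as the rlog of each member minus that of Fcgr2b in the same sample. For Fcgr3 this was -0.55 and -0.68 in wild type and -0.55 and -0.72 in DKO, so the groups overlapped almost fully (difference of means -0.022, exact two-sided permutation p = 0.667). Fcgr4 relative to Fcgr2b was -1.51 and -1.57 in wild type and -1.52 and -1.83 in DKO (difference -0.14, exact permutation p = 0.667). Here DKO replicate 2 lay apart, and DKO replicate 1 was within the wild-type range. Fcgr1 relative to Fcgr2b was -3.50 and -3.57 in wild type and -3.24 and -3.63 in DKO, which spanned the wild-type samples (difference 0.098, exact permutation p = 1.0). Fcer1g relative to Fcgr2b was -0.34 and -0.27 in wild type and -0.36 and -0.36 in DKO, a difference of -0.060 (exact permutation p = 0.333). This was the smallest range over the 4 samples of any member, from -0.36 to -0.27. Fcgrt relative to Fcgr2b moved from -3.60 and -3.53 to -2.56 and -2.72, a difference of 0.92 with groups far apart (exact permutation p = 0.333). With 2 samples against 2 the smallest p that permutations can give is 0.333. Of the 5 members, 2 had groups that did not overlap on this scale, against 95.6% of all tested genes set against Fcgr2b in the same way. Because Fcgr2b itself fell, a gene that did not move would also tend to separate on this scale. The 2 shares therefore do not show that the receptors are tied to Fcgr2b. The overlap does not show that the activating receptors and Fcgr2b fell alike, since these samples allow no p under that limit.

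**Figure D2:**
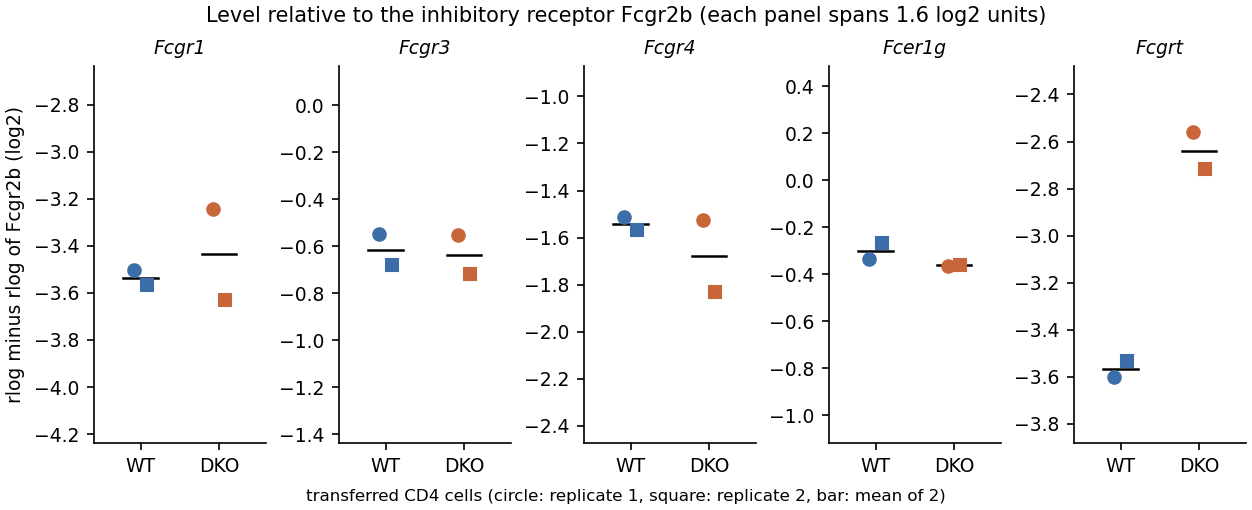
Rlog of each member minus rlog of Fcgr2b in the same sample (log2), with wild-type transfer (WT) in blue and DKO transfer in orange. Points are samples, bars are means of 2, and each panel spans 1.6 log2 units. Fcgr1, Fcgr3 and Fcgr4 overlap between the groups, Fcer1g differs by -0.060, and Fcgrt is higher by 0.92 in DKO.

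Within the DKO group the members differed in which sample was lower. With replicate 1 given first, Fcgr2b (11.79 and 12.02), Fcgr3 (11.24 and 11.30) and Fcer1g (11.43 and 11.66) were lower in replicate 1. Fcgr1 (8.55 and 8.39) and Fcgr4 (10.27 and 10.19) were lower in replicate 2. For Fcgr3 and Fcgr4 the samples lay close together, and no order of single samples was tested. Macrophage markers, as the log2 of their summed linear values, were lower in DKO replicate 1 (14.34 against 14.54), and neutrophil markers were lower in DKO replicate 2 (14.32 against 14.78). Other lists had the same orders. T cell markers (14.74 against 14.90) and dendritic cell markers (13.05 against 13.29) were also lower in DKO replicate 1. Monocyte markers (13.84 against 14.12) and mast cell and basophil markers (12.06 against 12.28) were also lower in DKO replicate 2. The orders therefore point to no single cell type, and the part of any cell type in these differences was not tested.

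Levels between genes were compared on the rlog scale after subtracting the log2 of each gene's exonic length in kb. On this scale the order was the same in all 4 samples. Fcer1g was highest, with mean levels per kb of 12.38 in wild type and 11.74 in DKO. Fcgr3 followed at 11.07 and 10.47, Fcgr4 at 10.61 and 9.90, and Fcgr2b at 9.95 and 9.37. Fcgrt (7.85 and 8.19) and Fcgr1 (7.58 and 7.10) were lowest. The gamma chain, shared by all the activating receptors, therefore stood above each of them, and Fcgr1, the high-affinity receptor, stood lowest. Neighbours in this order were separated in each group by more than the spread of its 2 samples. The closest pair was Fcgrt and Fcgr1 in wild type, with levels per kb of 7.86 and 7.84 against 7.65 and 7.50. Lengths are the union of annotated exons, 5790 bases for Fcgr2b against 874 for Fcer1g, so a gene with long exons that are little used would be placed too low.

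Fcgr2b, Fcgr4, Fcgr3 and Fcer1g lie together on chromosome 1, within 275.7 kb. Fcgr2b and Fcgr3 share stretches of identical sequence, which bears on how reads can be assigned. Of the 1733 windows of 50 bases in the annotated Fcgr3 transcripts, 166 (9.58%) are identical in Fcgr2b, where they make up 2.92% of 5685 windows. Counting any other annotated transcript, 4.38% of the Fcgr2b windows occur elsewhere on the sense strand and 6.95% on either strand. None of the windows of Fcgr1, Fcgr4, Fcer1g or Fcgrt occurs in another gene's transcripts. No source used here says how reads with several matches were treated, so the split of reads between Fcgr2b and Fcgr3 is uncertain for the windows these genes share. The antisense genes that overlap Fcgr2b and Fcgrt (Gm38204 and Gm45669) reached at most 0.046 and -0.97.

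Most neighbours of the cluster did not pass the test, which also held for most tested genes, of which 14.8% were called in either direction. Of 21 other genes tested between the 4 receptors and within 250 kb on either side, a window chosen after the values were seen, 1 fell and 2 rose, and the median difference was -0.029, close to the -0.022 of all tested genes. The gene that fell was Fcrlb, an Fc receptor-like protein and the next tested gene before Fcgr2b. It was at 7.39 and 7.25 in wild type and 6.63 and 7.00 in DKO (-0.50, SE 0.134, adjusted p = 0.0273). Leaving out wild-type replicate 1 (-0.44, adjusted p = 0.118) or DKO replicate 1 (-0.32, adjusted p = 0.128) ended the call. The genes that rose were Pcp4l1 (1.24, SE 0.16) and the aggrecanase Adamts4 (1.37, SE 0.148), which lie on either side of Fcer1g.

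**Figure D3:**
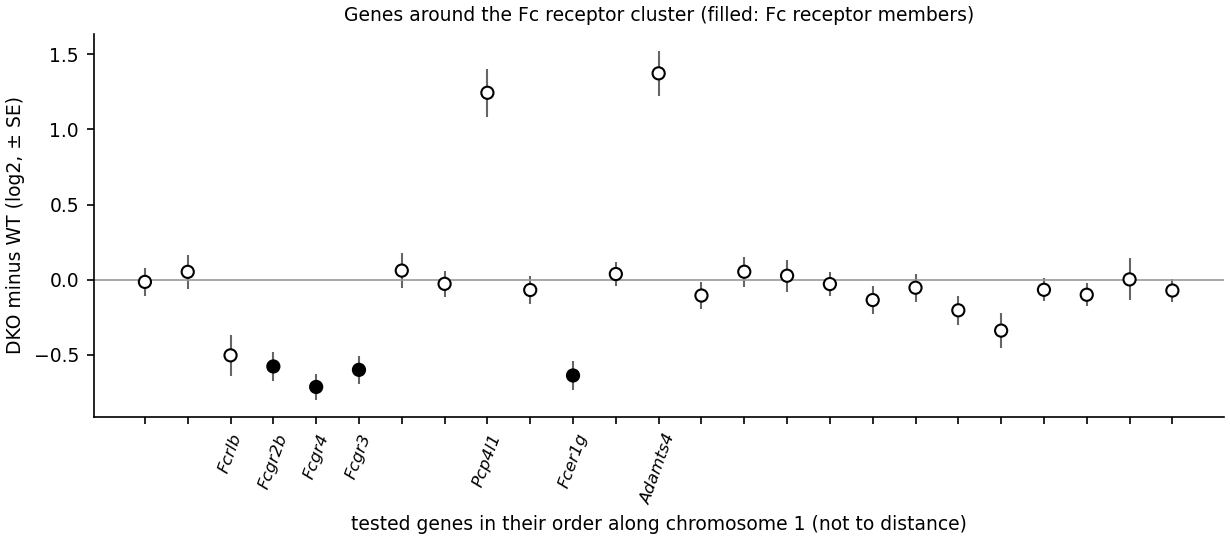
Difference between DKO and wild-type transfer (log2, with SE bars) for the tested genes around the Fc receptor cluster, in their order along chromosome 1, with names for the receptors and the genes past the test. Filled points are Fcgr2b, Fcgr4, Fcgr3 and Fcer1g, which lie between -0.71 and -0.58. Of the open points, Fcrlb is at -0.50, Pcp4l1 and Adamts4 are above 1, and most others lie near 0.

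The promoters of the receptors that moved together were read for short motifs of factors that are known to act on Fc gamma receptor genes. The windows are from RefSeq (GRCm38.p6) and run from 250 bases before to 50 bases after an annotated start. All 6 members matched a window. The windows of Fcgr2b and Fcgr3 lie wholly inside the gene spans given above, so the sequence before the 5′ ends of those spans was not read. The sequences of the 3 activating receptors, whose windows share a motif, and of the inhibitory receptor, whose window lacks it, are given below. They run 5′ to 3′ on the strand of the gene. They are Fcgr1 at chr3:96293920-96294219 (minus strand), Fcgr3 at chr1:171059354-171059653 (minus strand), Fcgr4 at chr1:171018676-171018975 (plus strand) and Fcgr2b at chr1:170976022-170976321 (minus strand). Capitals mark any match to the 4 motifs named after the sequences.
Fcgr1: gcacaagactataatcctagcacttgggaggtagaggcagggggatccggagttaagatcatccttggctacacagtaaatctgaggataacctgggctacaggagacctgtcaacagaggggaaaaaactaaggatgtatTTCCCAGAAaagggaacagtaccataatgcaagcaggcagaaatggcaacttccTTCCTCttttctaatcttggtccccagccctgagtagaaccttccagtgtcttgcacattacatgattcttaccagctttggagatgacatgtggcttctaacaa
Fcgr3: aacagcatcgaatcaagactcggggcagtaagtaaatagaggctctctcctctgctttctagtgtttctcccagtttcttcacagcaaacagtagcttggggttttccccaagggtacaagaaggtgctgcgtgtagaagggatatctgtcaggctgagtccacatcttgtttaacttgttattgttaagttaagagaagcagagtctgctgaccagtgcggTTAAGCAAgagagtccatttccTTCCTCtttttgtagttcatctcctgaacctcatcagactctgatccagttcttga
Fcgr4: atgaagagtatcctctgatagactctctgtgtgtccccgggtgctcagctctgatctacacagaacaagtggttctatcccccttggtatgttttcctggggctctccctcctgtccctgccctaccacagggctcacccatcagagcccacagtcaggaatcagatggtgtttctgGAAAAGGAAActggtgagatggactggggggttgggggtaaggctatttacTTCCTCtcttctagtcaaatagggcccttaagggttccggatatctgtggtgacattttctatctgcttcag
Fcgr2b: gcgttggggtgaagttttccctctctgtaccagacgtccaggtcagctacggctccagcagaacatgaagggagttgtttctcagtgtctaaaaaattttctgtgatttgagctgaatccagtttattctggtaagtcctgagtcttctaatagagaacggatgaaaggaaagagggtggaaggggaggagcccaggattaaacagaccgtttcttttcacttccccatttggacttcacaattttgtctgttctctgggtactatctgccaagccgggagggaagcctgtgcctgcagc

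The motif GAGGAA, a form of the PU.1 site and the only form searched, was read on both strands. It occurs as its complement TTCCTC once in each of Fcgr1, Fcgr3 and Fcgr4, with first bases at -55, -6 and -22 relative to the start. It is not in the windows of Fcgr2b, Fcer1g or Fcgrt, and 28.3% of 27025 promoter windows hold it. The motif TTCNNNGAA, the GAS element of STAT factors, which reads the same on both strands, is in Fcgr1 alone at -109, against 8.47% of all windows. The interferon response motif, GAAA, any 2 bases and GAAA again, searched on both strands, is in Fcgr4 alone at -73, against 3.49%. The C/EBP motif TTGCNNAA, also on both strands, is in Fcgr3 at -28 and in Fcgrt at -239, against 10.8%. These matches describe letters in the windows and not binding. Both matches of Fcgr3 are also in the window of its other RefSeq start, at -37 and -15. No motif overlaps another.

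Of the factors and signals known to set Fc receptor levels, 6 of 20 fell and 0 rose, with a median difference of -0.13. Spi1, which encodes PU.1, fell from 11.16 and 10.97 to 10.37 and 10.60 (-0.58, SE 0.0988, adjusted p = 0.00204), with DKO replicate 1 lowest as for Fcgr2b. C5ar1, the receptor for complement C5a, a signal that raises activating over inhibitory Fc receptors, fell by 0.71 (SE 0.092, adjusted p = 0.00033), from 11.03 and 11.07 to 10.21 and 10.45. Cebpb fell by 0.75 (SE 0.157, adjusted p = 0.00708) in limma. With a robust variance estimate the difference was the same and did not pass (adjusted p = 0.135, and up to 0.235 over 11 alternatives). The other falls were Irf5 (-0.32), the interferon gamma receptor chain Ifngr2 (-0.29) and Il10 (-0.42). Interferon gamma induces Fcgr1 and Fcgr4, and neither its gene Ifng (0.24, adjusted p = 0.11) nor Irf1 (0.03, adjusted p = 0.872) passed the test. The calls of Irf5, Ifngr2 and Il10 each ended in 6 of 11 alternatives. Irf5 lost its call when wild-type replicate 1 or 2 or DKO replicate 1 was left out (adjusted p = 0.191, 0.0526 and 0.0533), Ifngr2 without either wild-type replicate (0.135 and 0.241) or DKO replicate 2 (0.0637) and Il10 without wild-type replicate 2 (-0.21, adjusted p = 0.453) or DKO replicate 1 (0.0734), and under quantile normalization 3 of the 20 fell and 2 rose.

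Of 7 tested genes for other receptors that signal through the gamma chain, 4 fell and 0 rose, with a median of -0.44. These were the C-type lectins Clec4d (-0.65, SE 0.0803, adjusted p = 0.000241), Clec4n, which encodes Dectin-2 (-0.59, SE 0.0852), and Clec4e, which encodes Mincle (-0.56, SE 0.0998), with Cd300c2 (-0.44). Clec4e stood at 14.06 and 14.01 in wild type and 13.46 and 13.50 in DKO. Fcer1a, the IgE-binding chain of mast cells and basophils (0.28, adjusted p = 0.222), the natural killer receptor Ncr1 (0.24, adjusted p = 0.358) and Pira2 (-0.25, adjusted p = 0.227) did not pass. Leaving out wild-type replicate 2 ended the call of Cd300c2 (-0.37, adjusted p = 0.06), and without DKO replicate 2 there were 2 rises, Fcer1a among them (0.45, adjusted p = 0.0187).

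Tyrobp encodes DAP12, the sister ITAM chain that serves another set of receptors. It was at 12.42 and 12.45 in wild type and 12.08 and 12.01 in DKO (-0.39, SE 0.0835, adjusted p = 0.00828), a fall of 1.31-fold beside 1.56-fold for Fcer1g. The difference between these falls was not tested. Of 13 genes of the Tyrobp group 9 fell and 0 rose, with a median of -0.41. The smallest p-values were those of the lipid receptor Trem2 (-0.97, SE 0.117), of Trem1, which amplifies inflammation in neutrophils and monocytes (-0.65, SE 0.0849), and of Pilrb2 (-0.69, SE 0.0982). Tyrobp missed the threshold when wild-type replicate 1 or 2 was left out (adjusted p = 0.0517 and 0.0866).

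Of 14 other tested genes for ITIM receptors 8 fell, 1 rose and 5 did not pass, with a median of -0.44. Cd300lf fell from 10.62 and 10.60 to 9.97 and 9.94 (-0.65, SE 0.0765, adjusted p = 0.000182), and Clec12a, a receptor for uric acid crystals, fell by 0.68 (SE 0.0818). Pilra (-0.62), Clec4a2 (-0.82), Siglece (-0.66), Pirb (-0.50), Sirpa, the receptor for CD47 (-0.46), and the collagen receptor Lair1 (-0.42) also fell. The gene that rose was Pecam1 (0.48, SE 0.0814), which is also an endothelial marker. The B cell receptors Cd22 (-0.18, adjusted p = 0.428) and Cd72 (0.04, adjusted p = 0.858) did not pass. Leaving out wild-type replicate 2 ended the call of Lair1 (-0.36, adjusted p = 0.073), and without DKO replicate 2 there were 2 rises. Among 7 phosphatases and adaptors recruited by such motifs, only Dok3 fell in limma (-0.59, SE 0.0994, adjusted p = 0.00178), and Inpp5d, the partner of Fcgr2b, was at -0.05 (adjusted p = 0.735). Ptpn6 was just short of the threshold (-0.27, adjusted p = 0.0503) and passed in 4 of 11 alternatives (adjusted p from 0.0246 to 0.343), and the count of falls was 3 with median centring.

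**Figure D4:**
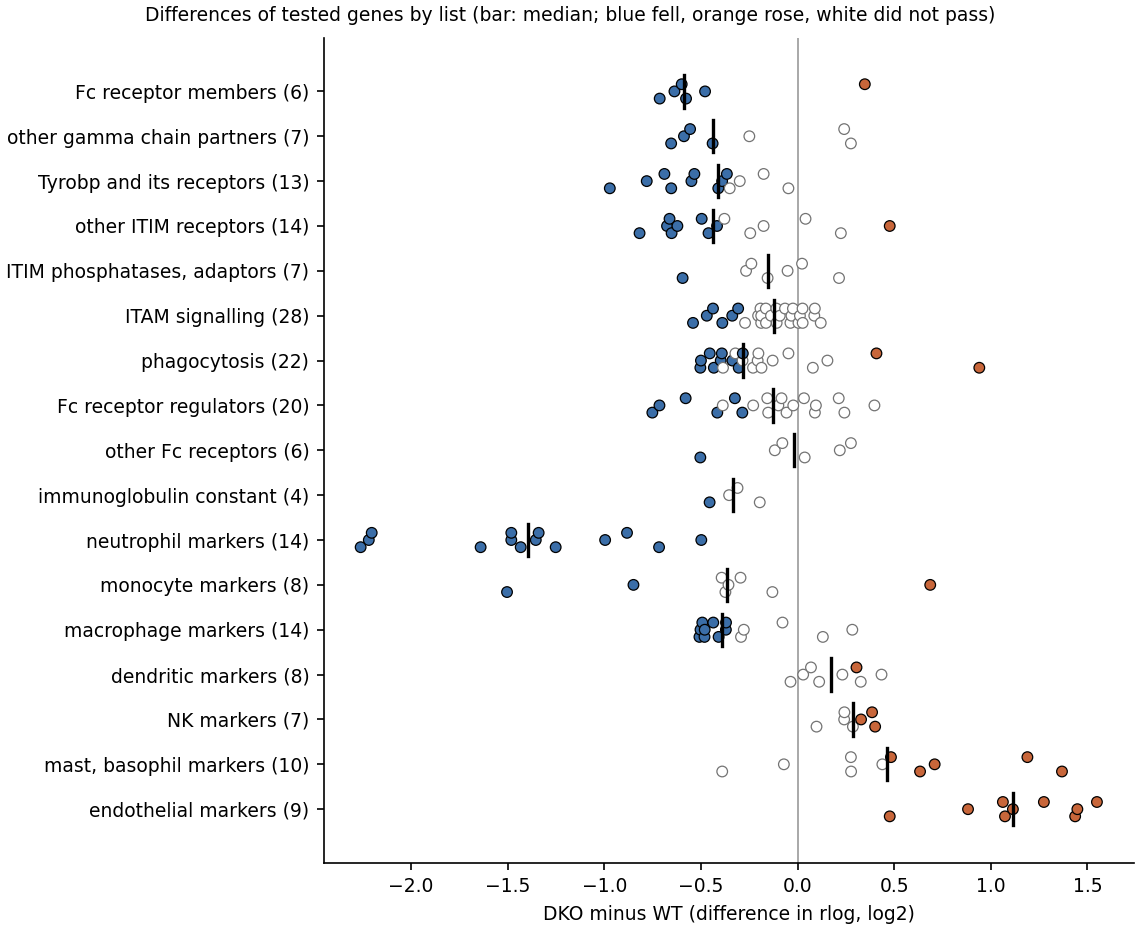
Difference between DKO and wild-type transfer (log2) for each tested gene of the Fc receptor family, of the gene lists around it and of cell type markers, with the number tested in brackets. Black bars are medians, blue points fell, orange points rose and white points did not pass. The family without Fcgrt lies between -0.71 and -0.48, left of most signalling genes (median -0.12) and right of most neutrophil markers (median -1.39).

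Downstream of the receptors, 6 of the 28 genes of ITAM signalling fell and 0 rose, against 4.85% and 9.92% of all tested genes. The other 22 did not pass, and the median was -0.12. The falls included the Src family kinases Fgr (-0.44, SE 0.0795, adjusted p = 0.003) and Lyn (-0.34), the adaptor Card9 (-0.54, SE 0.105), the Tec kinase Btk (-0.39) and Syk itself (-0.31, SE 0.0931, adjusted p = 0.0487). Among the genes that did not pass were the exchange factor Vav1 (-0.11, adjusted p = 0.404), the lipase Plcg2 (-0.04, adjusted p = 0.85) and the lipid kinase Pik3cd (-0.03, adjusted p = 0.854). Syk lost its call in 5 of 11 alternatives, the highest p being without wild-type replicate 1 (-0.20, adjusted p = 0.426), where 3 of the 28 fell. Lyn lost it in 3 (0.172 without wild-type replicate 1) and Btk in 4 (0.28 and 0.0536 without either wild-type replicate, 0.117 lacking DKO replicate 2).

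Of 22 genes of engulfment and phagosome maturation 9 fell and 2 rose, with a median of -0.28. Marcks, an actin-binding substrate of protein kinase C, was at 11.71 and 11.71 in wild type and 11.28 and 11.27 in DKO (-0.43, SE 0.0775, adjusted p = 0.00273). The lysosomal protease Ctsd (-0.45) and the oxidase subunits Ncf4 (-0.34) and Ncf1 (-0.40) fell as well. The rises were gelsolin, encoded by Gsn (0.94, SE 0.103), which fibroblasts also express in quantity, and Amph (0.41). The count of falls was 3 and 5 without wild-type replicate 1 or 2, 15 without DKO replicate 2 and 5 with quantile normalization. Without wild-type replicate 1 the calls of Ncf1 and Ncf4 ended (adjusted p = 0.165 and 0.128), and that of Amph ended in 6 of 10 alternatives, among them those lacking either wild-type replicate (0.0929 and 0.238) or DKO replicate 1 (0.167).

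RNA of the IgG ligands was near the floor of the table. Of 13 genes for immunoglobulin constant regions and J chain 4 were tested and 1 fell. The IgG heavy chain genes reached at most -1.96 for Ighg1, 0.46 for Ighg2b, -0.50 for Ighg2c and -1.04 for Ighg3. Ighm was the highest of the list, at 8.89 and 8.92 in wild type and 8.92 and 8.50 in DKO (adjusted p = 0.359). The gene that fell was Iglc3 (-0.46, SE 0.121, adjusted p = 0.0264). It was close to the minimum for testing, at 4.48 and 4.32 in wild type and 4.04 and 3.85 in DKO. Its call ended without wild-type replicate 1 (-0.37, adjusted p = 0.183) or DKO replicate 2 (0.0608), while without DKO replicate 1 there were 3 falls, with Ighm at -0.41 (adjusted p = 0.00723). Of 14 other Fc receptors and partners 6 were tested, and 0 rose and 1 fell, which was Fcrlb. Pigr, which carries IgA and IgM across epithelium (-0.08, adjusted p = 0.774), and Trim21, a cytosolic receptor for IgG (0.22, adjusted p = 0.199), did not pass. Fcer2a, the low-affinity IgE receptor of B cells, lay between -1.50 and -1.49, and Fcmr, the IgM receptor of lymphocytes, between 0.32 and 0.38.

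All 14 neutrophil markers fell in limma, with a median of -1.39, and their summed level was 15.89 and 15.97 in wild type and 14.78 and 14.32 in DKO. With a robust variance estimate 9 of them fell. Of 14 macrophage markers 9 fell, 0 rose and 5 did not pass, with a median of -0.39 and summed levels of 14.89 and 14.86 against 14.34 and 14.54. Among them were the complement genes C1qb (-0.50, SE 0.0885) and C1qc (-0.49, SE 0.101). The count was 4 without wild-type replicate 1. Of 8 monocyte markers 2 fell, Chil3 (-1.50) and Ly6c2 (-0.85), and Vcan rose (0.69). Differences were negative for 7 of the 8, with a median of -0.37 and summed levels of 14.24 and 14.19 against 14.12 and 13.84. Without DKO replicate 1, 6 of the 8 fell. The 5 falling Fc receptor genes, at -0.71 to -0.48, lay between the medians of the neutrophil and macrophage lists, and the part of these cells in them was not tested.

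Of 10 mast cell and basophil markers 5 rose and 0 fell, with a median of 0.46 and summed levels of 11.32 and 11.13 against 12.28 and 12.06. The smallest p-values were those of Mcpt2 (1.37, SE 0.111) and Mcpt1 (1.19, SE 0.113), proteases of mast cell granules, and of Kit, the stem cell factor receptor (0.71, SE 0.0922), and 3 rose with quantile normalization. Fcgr3, which mast cells also carry, fell. Of 7 natural killer cell markers 3 rose (Klrk1 0.33, Klre1 0.40 and Gzma 0.39), with summed levels of 12.89 and 12.94 against 13.18 and 13.38, and 0 rose without wild-type replicate 1 (adjusted p = 0.104, 0.253 and 0.137 for these genes). Of 8 dendritic cell markers 1 rose, Zbtb46 (0.30), whose call ended in 6 of 11 alternatives (adjusted p = 0.103 and 0.295 lacking either wild-type replicate, 0.115 lacking DKO replicate 2). Of 3 eosinophil markers 2 fell, Ccr3 (-0.76) and Alox15 (-0.59), and neither did without wild-type replicate 1 (adjusted p = 0.121 and 0.343). Of 2 plasma cell markers 1 fell, Sdc1 (-0.74), which epithelium also expresses, while Tnfrsf17 was at 0. The 1 B cell marker tested, Cd79b, did not pass (0.05, adjusted p = 0.85).

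Endothelium is a known site of Fcgrt but not its sole site. All 9 endothelial markers tested rose, with a median of 1.11 and summed levels of 11.70 and 11.52 against 12.50 and 12.61. All 12 markers of fibroblasts and smooth muscle also rose, with a median of 0.996 and summed levels of 15.01 and 14.86 against 16.01 and 15.85. Of 8 epithelial markers 0 passed in limma, with a median of -0.084 and summed levels of 13.88 and 13.99 against 13.92 and 13.84, and 1 fell without DKO replicate 1. Of 14 macrophage markers, by contrast, 9 fell and 0 rose, with a median of -0.39. The part of these or any other cells in the rise of Fcgrt was not tested.

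The genes whose pattern over the 4 samples was nearest to each member were found by the distance between rlog values after subtracting each gene's mean, among 12668 tested genes with an established name. Nearest to Fcgr2b were Apoe, a lipid carrier of macrophages (distance 0.0314), Fam213b (0.047) and Tgfbi (0.065). Apoe stood at 13.89, 13.83, 13.17 and 13.43. Fcer1g was also close to Fcgr2b, at rank 7, and had Aldh3b1 (0.0489), Fam213b (0.0618) and Tff1 (0.0644) nearest. Nearest to Fcgr1 were Csf3r, the receptor for the neutrophil growth factor G-CSF (0.0236), Iglc3 (0.0356) and the inhibitory receptor Pirb (0.0541). Fcgr3 had Slc27a4 (0.0417), Cyp4f18 (0.043) and the inhibitory receptor Siglece (0.0713) nearest. For Fcgr4 they were Dntt (0.0746), Tpd52 (0.0774) and Bst1 (0.0994), and for Fcgrt they were Fer (0.0248), Rem1 (0.0263) and Itgad (0.0287), none of which passed the limma test (adjusted p = 0.061, 0.0686 and 0.0704). Seen from Fcgr4 the nearest member was Fcgr3, at rank 23. Seen from Fcgr1 the other falling members were at ranks from 156 (Fcgr3) to 1033 (Fcer1g). With 4 samples in 2 groups many genes have like patterns, and the distances were not tested.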

How the data were processed

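The data are RNA sequencing of lamina propria mononuclear cells in 4 mouse samples, 2 per group, from stranded libraries per the labels' protocols. Groups follow the treatment in the labels, and replicate numbers follow the order of entries and pair no samples. The replicates are called biological, without naming separate animals, so p-values may reflect only differences among these 4 preparations. The table holds rlog, a log2 scale, as deposited by the authors, per the table's name, and the submitters' processing notes name DESeq2. They further list, with no roles given, STAR 2.5.4a, BWA 0.7.14-r1136, featureCounts of Subread 1.5.2, cutadapt 1.9.1 and bcl2fastq 2.17.1.14, and the build GRCm38. Of the table's columns, 2 match no labelled sample and were left out. Whether they influenced the rlog transformation is not known. No counts were analysed here, so no interval rests on counts and the depth per sample is unknown.

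Symbols, positions and exon lengths came from GENCODE M21 (GRCm38). A minimum mean rlog of 4 set which genes were tested, with limma 3.58.1 in R 4.3.3, with group as the only term, a mean-variance trend, two-sided tests, Benjamini-Hochberg adjustment over all tested genes and a threshold of 0.05. Differences are DKO minus wild type. The fit was tested on simulated data. Tables and figures used Python 3.11.15, pandas 2.3.3 and matplotlib 3.10.9. The 6 members, 22 gene lists (260 genes, 222 tested), motifs and tests were chosen with earlier results of these data known. By rule the text names the members, up to 3 genes per list with the smallest p, every called gene of a list with up to 8 calls in a direction, and the 3 nearest patterns per member. Other genes named were chosen after their values were seen, and some that the rule takes are given as counts only or are not reported here. No symbol was matched for Lilrb4a, Gp49a and Pira6.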

Additional observations from a re-analysis of the deposited data

How the results depend on the processing

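All differences of the 6 members kept their sign in 11 alternatives: no minimum, a mean rlog of at least 6, no variance trend, a robust variance estimate, median centring, quantile normalization, sample weights, and each sample left out. With no minimum 0 members fell and 0 rose at the threshold, with differences of -0.48 (Fcgr1), -0.58 (Fcgr2b), -0.60 (Fcgr3), -0.71 (Fcgr4), -0.64 (Fcer1g) and 0.35 (Fcgrt) and adjusted p = 0.115, 0.0961, 0.0898, 0.0564, 0.0852 and 0.0961, 25 of all genes fell and 181 rose, and 2 list genes fell and 6 rose, against 73 and 33. The cause was not tested. At a mean of at least 6, 878 genes rose against 1342. With a sample left out, Fcgr1 ranged from -0.56 to -0.40 (adjusted p = 0.000398 to 0.0616) and Fcgrt from 0.31 to 0.38 (adjusted p = 0.00832 to 0.109), members that rose numbered 0 to 1 and members that fell 4 to 5, and over all genes 324 to 1222 fell, against 656, and 1008 to 1660 rose. The lowest count was without wild-type replicate 2, and the highest without DKO replicate 2. Such fits take the lone sample to vary as much as the other pair. Quantile normalization shrank the falls of Fcer1g and Fcgr2b to -0.55 and -0.49 and kept the 6 calls. Among list genes that did not pass, Cd79b and Derl3 changed sign with quantile normalization (-0.11 and -0.091), and with a sample left out Derl3 ranged from -0.037 (without wild-type replicate 2) to 0.21 and Ighm from -0.41 to 0.014 (without DKO replicate 2). The differences in level relative to Fcgr2b changed sign for Fcgr1, Fcgr3 and Fcgr4 without single samples. No paired analysis was possible because the labels give the samples no numbers shared between groups. Depth is unknown, so limits on low genes could not be set.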
